A study of Mus musculus with 16 samples.

Results

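The 38 genes described here encode the machinery of cell division, and were followed in 16 libraries of brain macrophages and microglia sorted from mice after an intrastriatal injection of alpha-synuclein (α-syn). They were chosen by name for their textbook roles in the cell cycle, with earlier results of these data known, 16 for S phase and 22 for mitosis, and all 38 were found among the 18580 genes measured. In each of 8 combinations, female or male, wild type (WT, C57BL/6N littermates) or CD163KO (CD163tm1.1(KOMP)Vlcg), the mice received α-syn monomers (MONO) or pre-formed fibrils (PFF) in both striata at 12 weeks of age and were killed 2 months p.i. There were no uninjected or PBS-injected mice in these libraries, so every group carried an α-syn injection. For each combination, macrophages (CD45 high, CD11b+) and microglia (CD45 low to intermediate, CD11b+) were sorted from the brains of the same group of mice. The macrophage gate takes in macrophages of the brain's borders, infiltrating ones, and also neutrophils and NK cells. Several mice of a group contributed to a combination and 1 table per combination was analysed, so a group is 1 library, and the sources used here do not state whether its table joins the sequenced triplicates. The mice were operated in 2 batches that the labels do not assign to libraries, so a batch effect was not tested.

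A cell that divides passes through S phase, in which the DNA is copied, and then through G2 and mitosis, in which the copies are separated. Transcripts for replication (the MCM helicase, PCNA and the enzymes of nucleotide supply) are switched on by E2F factors near the start of S phase. Transcripts for mitosis (cyclin B and CDK1, the Aurora and Polo kinases, kinetochore and spindle proteins) peak later, under the DREAM and MuvB complexes that act on CHR elements in promoters. Many of these promoters also hold CCAAT elements, which are not sites of those complexes. Adult microglia renew slowly and few are in cycle at any time, while neutrophils are replaced from precursors that divide in the bone marrow. In sorted bulk RNA, fewer dividing cells and less transcript per dividing cell cannot be told apart.

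The promoters are printed for 4 mitosis genes and 2 S phase genes that passed the test between the populations described further on, since these elements are what such genes are known to share. Promoter windows from RefSeq (GRCm38.p6), from 250 bases before the start of the gene to 50 after, were matched to 31 of the 38 genes. The last 200 bases of each window are given 5′ to 3′ on the gene's strand, with capitals marking 3 kinds of letters found on either strand. CHR letters were TTTGAA or, as a second form, TTCGAA. The CCAAT box was searched by its name. E2F letters were TTTCCCGC, TTTCGCGC, TTTGCCGC or TTTGGCGC. No matches overlapped in the stretches printed. The printed stretches span chr9:70421505-70421704 (minus strand) for Ccnb2, chr2:164769779-164769978 (plus) for Ube2c, chr1:189688037-189688236 (minus) for Cenpf, chr11:117849087-117849286 (plus) for Birc5, chr8:75109359-75109558 (plus) for Mcm5 and chr5:30073576-30073775 (minus) for Tyms.
Ccnb2: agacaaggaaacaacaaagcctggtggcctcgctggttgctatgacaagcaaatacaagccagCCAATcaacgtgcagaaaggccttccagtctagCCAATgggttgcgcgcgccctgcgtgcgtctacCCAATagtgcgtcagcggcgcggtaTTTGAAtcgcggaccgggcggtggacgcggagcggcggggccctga
Ube2c: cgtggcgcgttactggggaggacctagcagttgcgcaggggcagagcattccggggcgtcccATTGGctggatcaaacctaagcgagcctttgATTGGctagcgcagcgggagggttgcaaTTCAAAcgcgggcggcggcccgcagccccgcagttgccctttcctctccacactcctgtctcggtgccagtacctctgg
Cenpf: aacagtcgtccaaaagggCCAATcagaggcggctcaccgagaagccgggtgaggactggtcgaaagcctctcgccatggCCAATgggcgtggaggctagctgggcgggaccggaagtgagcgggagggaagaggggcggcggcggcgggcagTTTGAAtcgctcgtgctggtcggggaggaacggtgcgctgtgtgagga
Birc5: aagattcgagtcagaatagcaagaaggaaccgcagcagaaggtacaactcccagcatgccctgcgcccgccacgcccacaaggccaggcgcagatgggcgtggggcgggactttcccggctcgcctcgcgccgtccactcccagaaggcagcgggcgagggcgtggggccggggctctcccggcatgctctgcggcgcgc
Mcm5: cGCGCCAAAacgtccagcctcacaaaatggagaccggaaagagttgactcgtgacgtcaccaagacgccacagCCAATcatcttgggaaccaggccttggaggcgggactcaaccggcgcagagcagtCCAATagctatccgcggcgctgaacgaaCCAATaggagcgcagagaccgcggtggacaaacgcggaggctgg
Tyms: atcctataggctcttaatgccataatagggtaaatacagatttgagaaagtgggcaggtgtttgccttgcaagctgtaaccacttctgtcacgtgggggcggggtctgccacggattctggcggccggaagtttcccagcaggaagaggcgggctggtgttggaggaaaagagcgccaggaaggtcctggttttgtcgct
The windows of Ccnb2, Ube2c and Cenpf each held CHR and CCAAT letters close to the start. The window of Mcm5 held CCAAT and E2F letters and no CHR letters. In the windows of Birc5 and Tyms none of these letters were found. Over the full windows, 14 of 18 mitosis genes held CHR letters (77.8%), against 3 of 13 S phase genes (23.1%) and 19.2% of all 32851 promoters. CCAAT letters were found for 16 of 18 mitosis genes (88.9%), for 9 of 13 S phase genes (69.2%) and in 37.4% of all promoters. E2F letters went the other way, with 5 of 13 S phase genes (38.5%), 1 of 18 mitosis genes (5.6%) and 2.3% of all promoters. A match of letters is a description of sequence and not of binding.

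The level of a gene is given as FPKM, the fragments scaled to transcript length and library depth as deposited, which allows comparison between genes. The depth per library, as summed estimated counts, ran from 12170686 to 21433841 for macrophages and from 8648751 to 18768238 for microglia. The deleted gene separated the macrophages by genotype, with 748 to 5275 counts of Cd163 in WT and 0 to 1 in CD163KO. In microglia, where this scavenger receptor is known to be low, the counts were between 0 and 101 and did not separate the genotypes. Defining microglia genes (8 genes, among them Tmem119 and P2ry12) summed to an FPKM of 13896.5 to 40611 in microglia and of 579 to 1292 in macrophages.

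Some libraries stood apart before any comparison was made. The study excluded male CD163KO MONO mice, and those libraries enter the values shown but not the fits. The male WT PFF macrophage library had 8378 genes detected and the male CD163KO MONO macrophage library 9775, against 11272 to 12992 in the other 6, and 15 of the 38 genes were at 0 in the former. In that library the values were close to all or none, with 3847 counts of Rrm1 and 844 of Cdk1 but 0 of Mcm2, Mcm3 and Top2a and 1 of Mki67. The male WT PFF and male CD163KO MONO microglia had microglia gene sums of 40611 and 35076 against at most 17873 elsewhere. The female CD163KO MONO microglia carried 799 counts of Y-linked genes, where the other female libraries had at most 2.

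**Figure D1:**
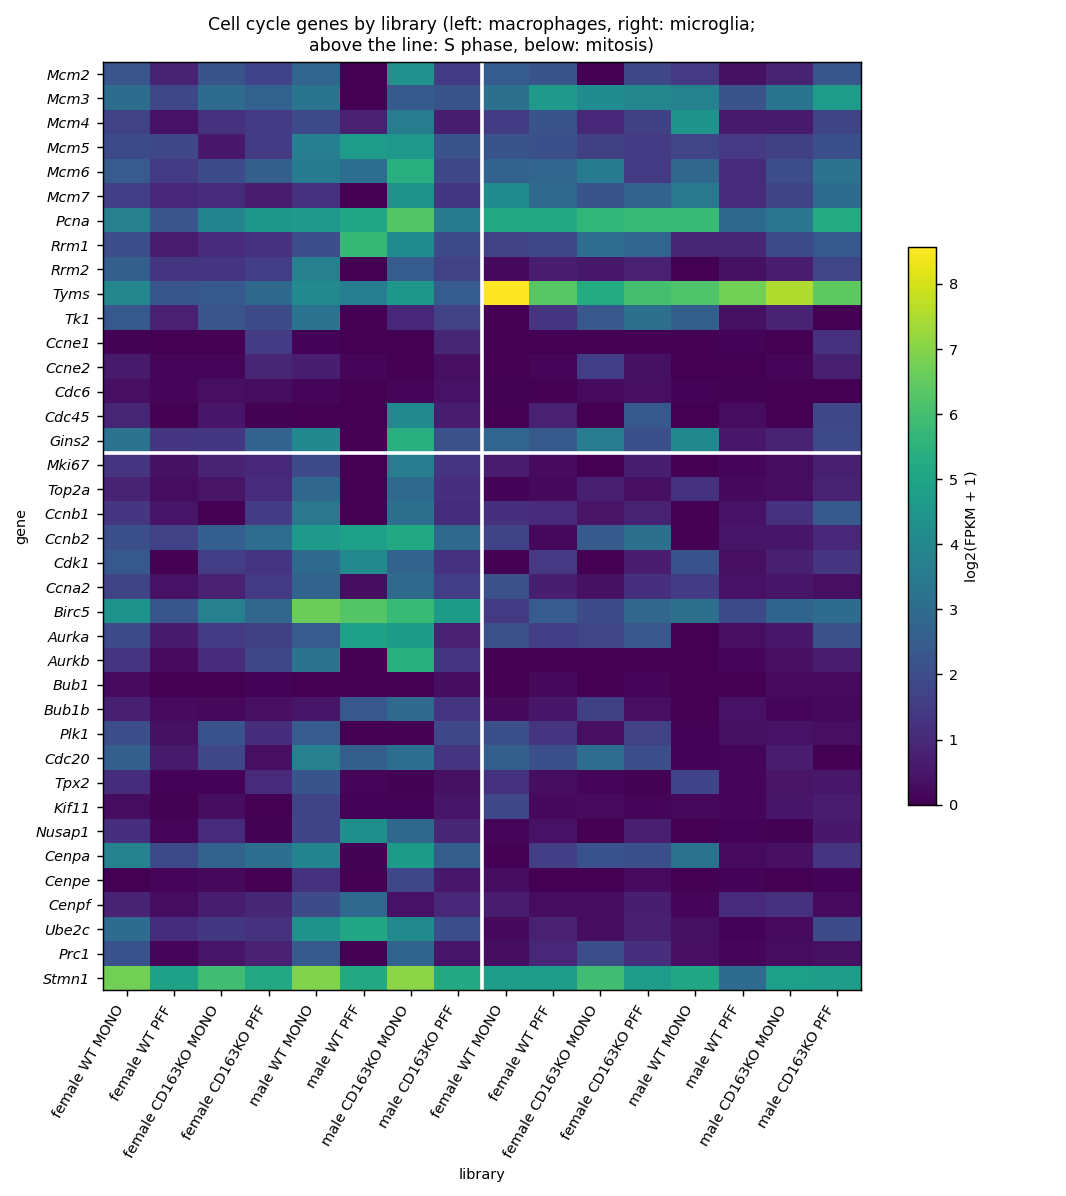
Level of each of the 38 genes (rows) in each library (columns), as log2(FPKM + 1). Tyms in microglia and Stmn1 in macrophages were the brightest rows, and most mitosis genes in microglia lay near 0.

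The median FPKM over the 22 mitosis genes ran from 0.17 to 6.74 over the macrophage libraries and from 0.09 to 0.675 over the microglia libraries. Where 8 values are given below for a gene, they follow the order WT MONO, WT PFF, CD163KO MONO and CD163KO PFF, first in females and then in males. Mki67, a proliferation marker that coats mitotic chromosomes, had an FPKM of 1.51, 0.32, 0.79, 0.96, 2.73, 0.01, 11.0 and 1.46 in macrophages. Microglia had 0.62, 0.20, 0, 0.63, 0, 0.11, 0.21 and 0.70, so the populations overlapped through the WT PFF macrophages of both sexes. Top2a, the topoisomerase that untangles sister chromatids, had 0.79, 0.23, 0.37, 1.06, 6.04, 0, 6.68 and 1.29 in macrophages and 0.07, 0.13, 0.70, 0.29, 1.34, 0.15, 0.22 and 0.79 in microglia. Both genes were higher in the male WT MONO macrophages than in every female macrophage library.

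Among the S phase genes, PCNA, the clamp that holds the polymerase on DNA, was found in every library. The FPKM of Pcna was 12.4, 3.80, 13.5, 21.9, 23.6, 33.3, 76.5 and 10.8 in macrophages (median 17.7). In microglia it was 35.0, 36.5, 48.9, 53.3, 52.9, 6.28, 9.38 and 37.8 (median 37.15), and the lowest microglia values were those of male WT PFF and male CD163KO MONO. The 6 subunits of the MCM helicase, which opens the DNA ahead of the polymerase, did not share 1 pattern. Mcm3 had an FPKM of 7.18, 2.57, 6.95, 5.37, 8.86, 0, 4.35 and 3.71 in macrophages and 8.02, 23.4, 16.9, 14.3, 12.6, 3.58, 8.94 and 25.0 in microglia. It was higher in microglia in each of the 8 pairs. Of all genes with a mean FPKM of at least 1, 30.8% were higher in microglia in all 7 pairs left without male CD163KO MONO. Mcm7 had 2.04, 0.92, 1.12, 0.59, 1.35, 0, 19.5 and 1.61 in macrophages and 16.3, 6.65, 3.63, 5.49, 9.96, 1.02, 2.40 and 6.94 in microglia, higher in microglia in 7 of 8 pairs with the male CD163KO MONO pair the exception. Mcm2 had 3.78, 0.79, 3.71, 2.27, 5.94, 0, 19.0 and 1.80 in macrophages and 4.62, 3.64, 0, 2.64, 1.67, 0.32, 0.76 and 3.92 in microglia, and the groups overlapped. Mcm4 (medians 1.58 in macrophages and 1.925 in microglia), Mcm6 (4.80 and 5.69) and Gins2, a subunit of the GINS complex that activates the helicase (4.43 and 3.795), overlapped in the same way.

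The enzymes of nucleotide supply did not move as a group. Tyms, the thymidylate synthase, had an FPKM of 14.6, 3.89, 4.18, 6.50, 16.2, 11.7, 22.2 and 4.58 in macrophages and 376, 80.5, 37.6, 64.1, 72.7, 107, 185 and 85.5 in microglia. The lowest microglia library was above the highest macrophage library. The counts of Tyms were not whole numbers in 15 of 16 libraries although 1 transcript is listed, so some of its reads were divided with another transcript and its level is uncertain to that extent, which also holds for Ccna2, Cenpf, Kif11 and Ube2c. Rrm2, the small subunit of ribonucleotide reductase, had 5.03, 1.58, 1.51, 1.92, 12.3, 0, 4.64 and 2.18 in macrophages and 0.16, 0.61, 0.45, 0.71, 0, 0.30, 0.56 and 2.43 in microglia, lower in microglia in 6 of 8 pairs. The large subunit Rrm1 had 3.02, 0.61, 1.14, 1.35, 3.09, 52.9, 17.1 and 2.68 in macrophages and 2.21, 2.58, 7.43, 5.86, 0.85, 0.88, 2.77 and 4.16 in microglia. Tk1, the thymidine kinase of the salvage path, had 4.17, 0.73, 3.82, 2.91, 8.66, 0, 0.97 and 2.23 and 0, 1.45, 3.96, 7.86, 4.99, 0.32, 0.78 and 0. Of these 4 enzymes Tyms was the single one with ranges that stayed apart. The share of all genes with ranges apart was not counted, and 30.8% of them were higher in microglia in 7 of 7 pairs.

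The genes for entry into S phase were low or at 0 in most libraries. Ccne1, a cyclin E that drives the G1 to S step with its CDK, had an FPKM of 0.04, 0, 0, 1.88, 0.05, 0, 0 and 0.84 in macrophages and 0, 0, 0, 0, 0, 0.05, 0 and 1.32 in microglia. It was at 0 in 4 macrophage and 6 microglia libraries. Ccne2, the other cyclin E, had 0.52, 0.12, 0.08, 0.89, 0.63, 0.09, 0 and 0.27 and 0, 0.09, 2.04, 0.31, 0, 0, 0.10 and 0.70. Cdc6, which loads the helicase at origins, stayed at or below 0.33 in all 16 libraries. Cdc45, which joins the helicase when it fires, had 0.86, 0.02, 0.43, 0.04, 0.02, 0, 16.1 and 0.60 in macrophages and 0, 0.74, 0, 4.14, 0, 0.23, 0 and 2.59 in microglia. It was at 3 counts or fewer in 4 libraries of each population and was highest, with 665 counts, in the excluded male CD163KO MONO macrophages. A count of 0 still allows up to 3 counts in that library, and this limit covers counting error only.

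The population comparison asked in which of the 2 sorted fractions the genes were more abundant, over the 7 matched pairs. Of the 38 genes, 35 passed the filter (a mean of at least 10 counts), and Ccne1, Cdc6 and Bub1 did not. In an edgeR quasi-likelihood fit with TMM scaling and the pair as a block, all 21 mitosis genes tested had a negative log2 fold change of microglia against macrophages (median -2.69), against 41.9% of all 12138 genes (median 0.30). A gene was called when its Benjamini-Hochberg adjusted p was at most 0.05 and its absolute log2 fold change at least 1. The SE printed beside an edgeR log2 fold change is its absolute value divided by the square root of the quasi-likelihood F statistic, so it is approximate. The 7 genes called lower in microglia were the mitosis genes Ccnb2, Birc5, Aurkb, Cenpf, Ube2c and Stmn1 and the S phase gene Mcm5, where 12.3% of all genes were called lower. Tyms was the single gene called higher, where 7.39% of all genes were. Of the 14 S phase genes tested, 10 had a negative value (median -1.14). The number called was 8 with the pair as a block, where 19.7% of all genes were called in either direction, and 16 without the block, where 24.3% were. It was 21 with DESeq2, where 37.0% of all genes were called. It was 5 without the female WT PFF pair (14.5% of all genes), 5 without the male CD163KO PFF pair (14.6%) and 15 without the male WT PFF pair (33.0%), so both counts moved together. Without the male WT PFF and female CD163KO MONO pairs, an alternative chosen after seeing the data, it was 16 (30.3%). Tyms was the single gene called higher in each of these.

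Among the 6 mitosis genes, Stmn1 had the highest level in each library except male WT PFF macrophages, where Birc5 had an FPKM of 76.7 and Stmn1 of 35.8. Stmn1 encodes stathmin, which destabilises microtubules and is also made by cells that do not divide. Its FPKM in female macrophages was 105 in WT MONO, 28.6 in WT PFF, 60.8 in CD163KO MONO and 36.0 in CD163KO PFF, and in male macrophages 121, 35.8, 135 and 36.8 in the same order. In microglia it was 24.8, 24.7, 60.2, 24.7, 34.0, 6.89, 27.2 and 26.6, below the matched macrophages in 8 of 8 pairs (log2 fold change -2.49, SE 0.35, edgeR adjusted p 0.00051). The macrophages given MONO had higher levels than those given PFF in both sexes and both genotypes. The share of all genes that did the same was not counted, and the treatment fit further on did not call Stmn1. In female macrophages, 40.4% of all genes in WT and 3.93% in CD163KO were lower with PFF by at least 1 in log2(FPKM + 1).

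Ube2c, the ubiquitin-conjugating enzyme of the anaphase-promoting complex, had an FPKM of 6.93, 1.16, 1.63 and 1.38 in female WT MONO, WT PFF, CD163KO MONO and CD163KO PFF macrophages and of 20.1, 33.1, 15.5 and 3.12 in the male ones. In microglia it was 0.17, 0.72, 0.21, 0.67, 0.31, 0.07, 0.19 and 2.99 and below the matched macrophages in 8 of 8 pairs (log2 fold change -4.89, SE 1.14, edgeR adjusted p 0.011). Male macrophages lay above their female counterparts in each of the 4 combinations, and the share of all genes that did so was not counted. Birc5, survivin, a subunit of the chromosomal passenger complex, was at 20.1, 3.86, 12.1 and 6.06 in the female and at 97.8, 76.7, 54.5 and 24.2 in the male macrophages. In microglia Birc5 had 1.76, 4.55, 2.84, 6.10, 8.04, 2.67, 5.84 and 7.09 (log2 fold change -2.90, SE 0.49, edgeR adjusted p 0.0017). The male macrophages lay above the female ones without overlap for Birc5, as they did for 1.82% of all 9064 genes with a mean FPKM of at least 1.

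Both listed transcripts of Birc5 were found in both populations, in shares that overlapped. Of its counts, the shorter transcript (977 bases as listed) took 38.8% to 98.8% in macrophages and 0% to 68.6% in microglia, the rest going to the longer one (3416 bases). In male macrophages the share was between 92.6% and 98.8%, and in female macrophages between 38.8% and 81.1%. In the female WT PFF pair the share was lower in macrophages (38.8%) than in microglia (55.9%). The fold change above is of counts summed over both, so it mixes level and transcript.

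Ccnb2, a B cyclin that activates CDK1, had an FPKM of 3.25, 2.12, 4.95 and 7.28 in the female and of 23.5, 27.3, 35.3 and 6.77 in the male macrophages. Microglia had 2.40, 0.13, 4.30, 7.84, 0, 0.39, 0.44 and 0.96 (log2 fold change -4.20, SE 1.16, edgeR adjusted p 0.025). The populations overlapped in females. Cenpf, a kinetochore protein, had 0.80, 0.22, 0.66, 0.91, 2.89, 6.68, 0.34 and 0.92 in macrophages and 0.57, 0.21, 0.26, 0.63, 0.11, 1.07, 1.33 and 0.20 in microglia, with a log2 fold change of -3.03 (SE 0.68, edgeR adjusted p 0.0085). Aurkb, the kinase of the chromosomal passenger complex, had 1.42, 0.19, 1.13, 2.52, 8.56, 0, 40.4 and 1.45 in macrophages and 0, 0, 0, 0, 0, 0.08, 0.29 and 0.61 in microglia. With 5 of 8 microglia libraries at 0, its fitted log2 fold change (-7.18, SE 2.31, edgeR adjusted p 0.048) depends on the prior count and is no bound. Mcm5, a helicase subunit, had 2.82, 2.51, 0.49, 1.84, 11.7, 25.9, 22.5 and 3.53 in macrophages and 3.65, 3.27, 2.05, 1.75, 2.47, 1.65, 2.11 and 3.24 in microglia (log2 fold change -1.93, SE 0.51, edgeR adjusted p 0.020), and by FPKM it was higher in macrophages in 4 of the 7 pairs in the fit.

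**Figure D2:**
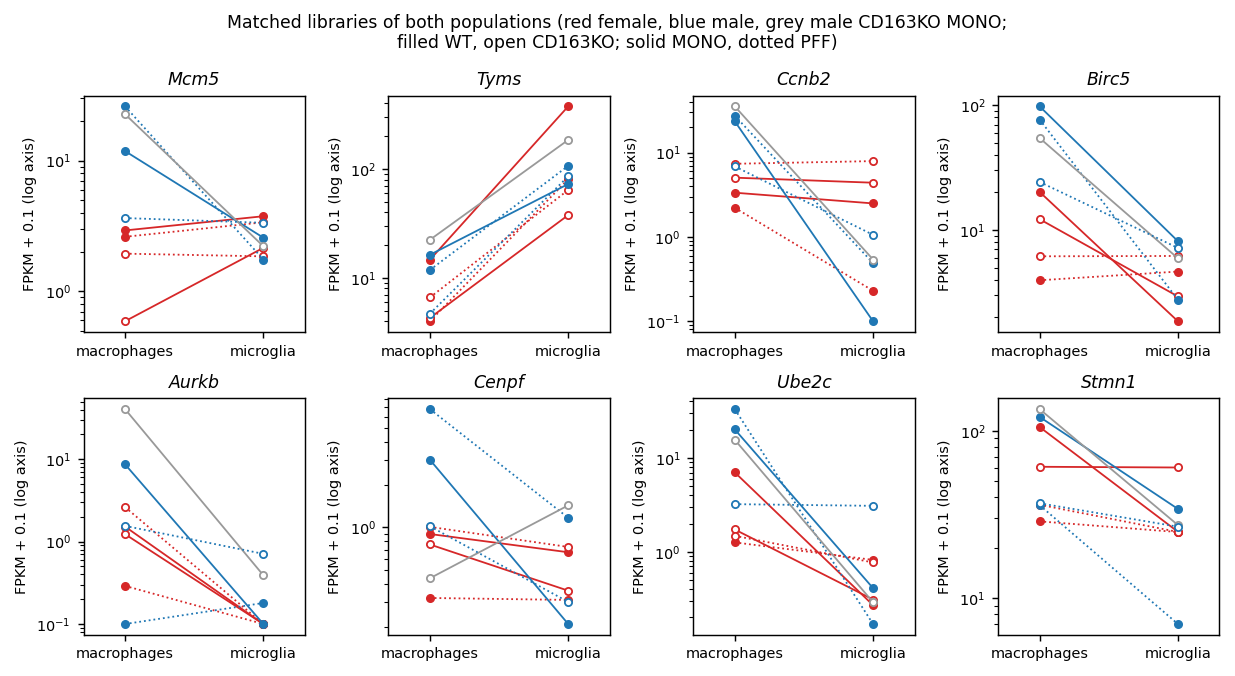
FPKM of the 8 genes called between populations in the 8 matched pairs of libraries, plotted on a log axis after adding 0.1. Tyms rose from macrophages to microglia in every pair, Ube2c and Stmn1 fell in every pair, and the lines of Mcm5 and Ccnb2 that fell most were male.

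The other mitosis genes had wide errors. Mki67 (log2 fold change -3.60, SE 1.70, edgeR adjusted p 0.16) and Top2a (-2.69, SE 1.31, adjusted p 0.18) were not called. Cdk1, the mitotic kinase, had an FPKM of 4.07, 0, 1.93, 1.47, 6.81, 16.3, 5.54 and 1.33 in macrophages and 0, 1.68, 0.02, 0.58, 3.42, 0.28, 0.69 and 1.48 in microglia, with a log2 fold change of -3.50 (SE 1.64, adjusted p 0.16). Cdk1 was at 0 in female WT PFF macrophages and highest in male WT PFF macrophages. Ccna2, cyclin A, had 2.40, 0.34, 0.71, 1.76, 5.61, 0.26, 6.80 and 1.97 in macrophages and 3.39, 0.64, 0.32, 1.26, 1.88, 0.34, 0.42 and 0.28 in microglia (log2 fold change -2.12, SE 0.98, edgeR adjusted p 0.15). Ccnb1, the other B cyclin, had 1.56, 0.39, 0, 1.86, 9.55, 0, 8.01 and 1.19 and 1.22, 1.07, 0.38, 0.75, 0, 0.33, 1.31 and 4.19 (-0.98, SE 1.87, edgeR adjusted p 0.75). Neither cyclin was called, and both overlapped between the populations. Plk1, the Polo kinase, had 3.17, 0.32, 3.48, 1.18, 4.52, 0, 0 and 2.64 in macrophages and 3.25, 1.50, 0.28, 2.16, 0.05, 0.30, 0.33 and 0.29 in microglia (log2 fold change -2.50, SE 1.80, edgeR adjusted p 0.36). Cdc20, the activator of the anaphase-promoting complex, had 5.01, 0.53, 2.56, 0.28, 12.3, 5.03, 7.48 and 1.49 and 5.09, 3.22, 7.38, 3.02, 0.07, 0.12, 0.57 and 0 (-2.32, SE 1.61, edgeR adjusted p 0.34), and in microglia the female libraries were all above the male ones. Among these female libraries is CD163KO MONO, which carried Y-linked counts. The share of all genes with female microglia above male ones was not counted.

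The remaining mitosis genes were Aurka, Bub1b, Tpx2, Kif11, Nusap1, Cenpa, Cenpe and Prc1, for the spindle and kinetochore. Their log2 fold changes ran from -4.66 (Nusap1) to -0.16 (Kif11), none called. Of the kinetochore genes Cenpa was the most abundant, with an FPKM of 0.04 to 24.4 in macrophages (median 6.63) and of 0 to 8.42 in microglia (median 1.71). Bub1, a checkpoint kinase, was at or below 0.24 in all 16 libraries and was not tested.

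**Figure D3:**
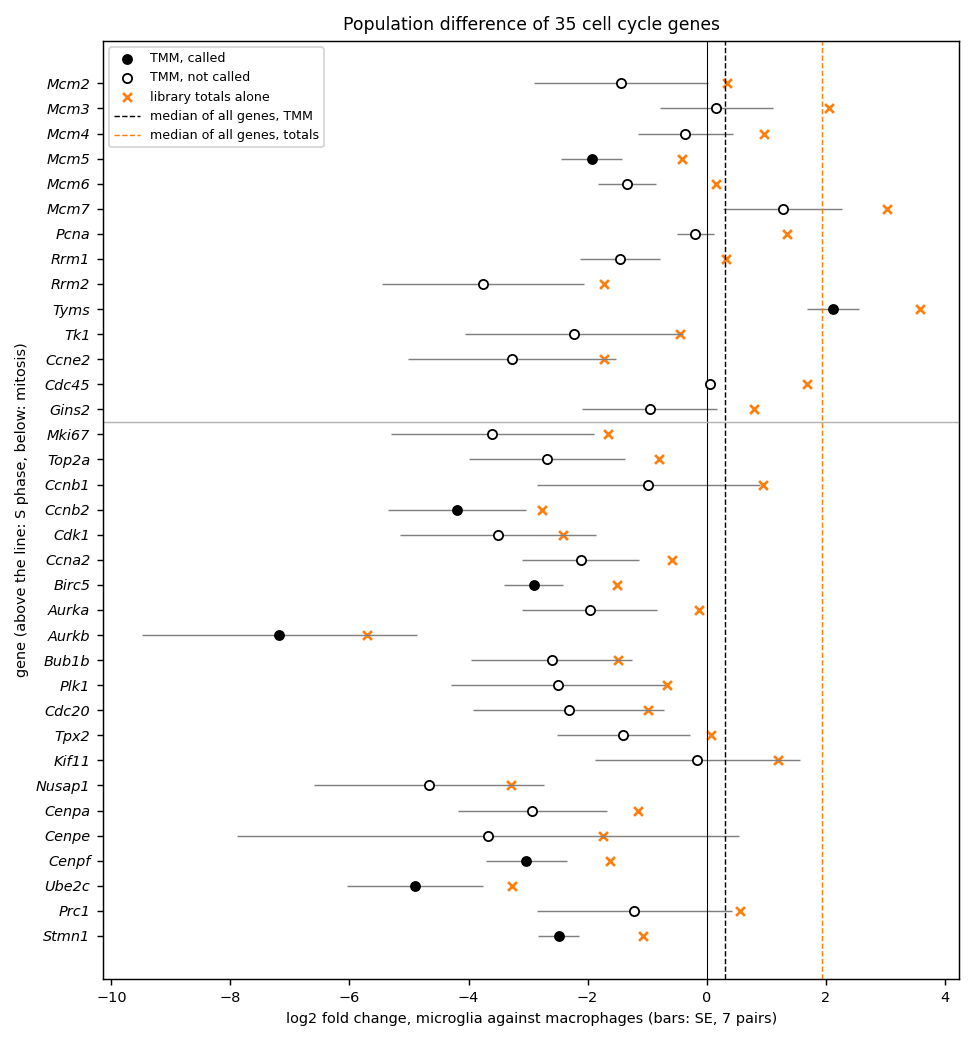
Log2 fold change of microglia against macrophages for the 35 genes tested (edgeR, 7 pairs, bars are SE, none drawn for Cdc45, where the fit gave no usable one), under TMM scaling (circles, filled when called) and with library totals alone (crosses). Dashed lines are the medians of all genes, 0.30 and 1.94.

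The direction of several genes depended on the scaling between the populations. With library totals alone the median of all 12138 genes moved from 0.30 to 1.94, a shift of 1.64, and neutrophil genes (10 genes, among them S100a8 and S100a9) summed to an FPKM of 22153 to 134585 in macrophages and of 951 to 2725 in microglia. The part of these transcripts in the shift was not tested. Under totals, 17 of 21 mitosis genes and 4 of 14 S phase genes were lower in microglia. Ccnb1, Tpx2, Kif11 and Prc1 among the mitosis genes and Mcm2, Mcm4, Mcm6, Pcna, Rrm1 and Gins2 among the S phase genes changed direction. The called genes were then Aurkb, lower, and Tyms, Mcm3 and Mcm7, higher, while all genes split into 5594 called higher and 580 called lower, against 897 and 1491 with TMM. Relative to the median of all genes, the median of the mitosis genes was -2.99 with TMM and -3.10 with totals and that of the S phase genes -1.45 and -1.37, with 21 of 21 and 12 of 14 genes below the median of all genes with TMM and 21 and 11 with totals.

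By FPKM, without a test, 3 of 22 mitosis genes (Cenpf, Ube2c and Stmn1) were higher in macrophages in 7 of the 7 pairs in the fit, and 7 in at least 6 of them, where 6.99% of all genes were. Among the 10340 genes with a mean FPKM of at least 1 that give these shares, 4.26% were higher in macrophages in 7 of 7 pairs and 30.8% were higher in microglia in 7 of 7. No S phase gene was higher in macrophages in 6 or more pairs.

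Other genes of the pathway were counted from lists for its parts. Of 43 further mitosis genes tested, 9 were called lower in microglia and none higher, where 12.3% of all genes were called lower and 7.39% higher. The 3 with the largest changes were Cdca2 (log2 fold change -6.32, SE 1.50), a chromatin-bound phosphatase subunit, Cdca3 (-5.88, SE 1.58), a trigger of mitotic entry, and Cdca8, borealin, of the chromosomal passenger complex (-4.53, SE 0.91). Of 28 further replication genes 1 was called, Slbp, which binds histone mRNA (-1.38, SE 0.22). Values below 0 were found for 35 of 43 mitosis and 19 of 28 replication genes, against 41.9% of all genes. With library totals alone these were 25 of 43 and 5 of 28, against 15.5% of all genes. Under totals 5 further mitosis genes were called lower, Cdca2, Cdca3 and Cdca8 among them, and 3 higher (Espl1, Hjurp and Ncaph), while 4 further replication genes were called higher (Orc2, Orc6, Dbf4 and Pold1) and 0 lower. Slbp (log2 fold change 0.10) and Pttg1 (securin, called with TMM at -1.24 and at 0.19 under totals) changed direction. Pttg1 and the genes called higher are named here after their values were seen.

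The regulators of G1 were read against the same shares of all genes, 12.3% called lower and 7.39% called higher. Of 6 CDK inhibitors tested, 3 were called lower in microglia, Cdkn1a (p21, log2 fold change -3.16, SE 0.35), Cdkn2d (-3.89, SE 0.56) and Cdkn3, a phosphatase of CDKs (-5.08, SE 0.91), while Cdkn1b (p27) had -0.96 (edgeR adjusted p 0.089). Of the 9 D cyclins and partner kinases, Ccnd2 (-5.83, SE 0.76) and Ccnd3 (-2.80, SE 0.30) were called lower and Ccnd1 was not (-0.79, adjusted p 0.093). In the RB and E2F family the activators E2f1 (-3.91, SE 0.76) and E2f2 (-4.38, SE 1.22) were called lower and E2f3, also an activator, higher (4.19, SE 1.20) among 12 tested. Of the 8 MuvB genes and partners, Lin37 was called lower (-1.60, SE 0.36), and Foxm1, which drives mitosis genes, had 0.61 (SE 1.30, adjusted p 0.78). Of 10 genes of G1 arrest, 4 were called lower, of which Gadd45a (-5.88, SE 1.11) and Gadd45b (-3.83, SE 1.06) had the largest changes, and Ccng2 was called higher (2.24, SE 0.56). With library totals alone, where 4.78% of all genes were called lower and 46.1% higher, more of these regulators were called higher than lower. Cdkn1a, Cdkn2d, Cdkn3, Ccnd2, E2f1 and Gadd45a were called lower. E2f3 and Ccng2 were called higher, as were Cdk6, Cdk7, Rbl1, E2f4, Lin9, Lin52, Lin54, Mdm2, Trp53 and Sesn1, which TMM scaling did not call. Ccnd3, E2f2, Lin37 and Gadd45b kept a negative value without the call, and Cdkn1b and Ccnd1 changed direction (0.58 and 0.74, neither called). Of the other genes of G1 arrest called lower with TMM, named here after their values were seen, Btg1 changed direction (-1.33 and 0.15) and Btg2 was at -1.52 and -0.08, neither called under totals. Genes that promote and genes that restrain division thus both stood among those called lower in microglia under both scalings.

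The summed level of the mitosis genes differed widely among the macrophage libraries. In female macrophages the sum over the 22 genes was an FPKM of 179 in WT MONO, 42.1 in WT PFF, 100.5 in CD163KO MONO and 74.7 in CD163KO PFF. In male macrophages it was 354, 253, 396 and 94.3 in the same order. The 3 highest sums were male, and the lowest was the female WT PFF library. All genes leaned to the same male libraries. Of 9064 genes with a mean FPKM of at least 1 in macrophages, 40.0% were highest in male CD163KO MONO and 34.9% in male WT PFF. The shares were 14.2% for male WT MONO and 0.62% for female WT PFF. In microglia the sums ran from 14.1 (male WT PFF) to 88.3 (female CD163KO MONO), and Stmn1 alone made up 60.2 of the latter. Without Stmn1, the sum was 73.4, 13.5, 39.6 and 38.6 in female macrophages and 233, 217, 262 and 57.5 in male ones, so the same 4 libraries were highest and female WT PFF lowest. In microglia it then ran from 7.16 (male WT PFF) to 33.9 (female CD163KO PFF).

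Genes of several other cell types moved with these sums in macrophages. Mpo, Elane, Prtn3, Ctsg, Ms4a3 and Fcnb, made in dividing precursors of neutrophils, summed to an FPKM of 339, 28.8, 55.7 and 139 in female WT MONO, WT PFF, CD163KO MONO and CD163KO PFF macrophages and of 847, 194, 612 and 159 in the male ones. The 4 libraries with the highest mitosis sums were also the 4 with the highest progenitor sums. The same 4 libraries had the highest sums of monocyte genes (1410 to 2881, against 295 to 1124 in the other 4), of NK and T cell genes (121 to 212, against 40.2 to 75.5) and of B cell genes (35.0 to 135, against 11.3 to 25.5). They were not the 4 highest for mature neutrophil genes or for border-associated macrophage genes. In 6 of 8 macrophage libraries all 6 progenitor genes were above 0, Ms4a3 being at 0 in the others, and in microglia 1 to 5 of them were, with sums from 0.53 to 19.1. The part of these cell types in the mitosis levels was not tested.

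**Figure D4:**
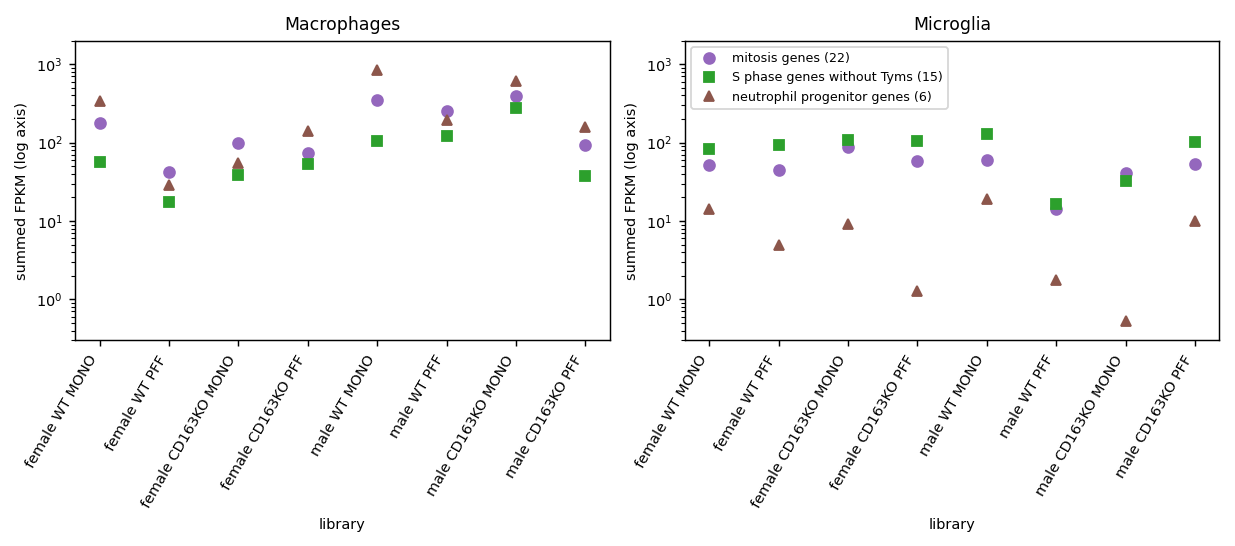
Summed FPKM, on a log axis, of the 22 mitosis genes (circles), the 15 S phase genes without Tyms (squares) and 6 neutrophil progenitor genes (triangles) in each library of macrophages (left) and microglia (right). In macrophages the lowest point of all 3 is female WT PFF, and in microglia the progenitor genes sit below the others.

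The sums of the S phase genes were taken without Tyms. They ran from 17.3 in female WT PFF to 275 in male CD163KO MONO macrophages (median 55.5) and from 16.7 in male WT PFF to 127 in male WT MONO microglia (median 97.3). The male WT PFF and male CD163KO MONO microglia, the 2 libraries with high microglia gene sums, had the 2 lowest sums, 16.7 and 32.1.

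The question for treatment was whether PFF changed these genes against MONO. An additive fit over sex, genotype and treatment was made in each population, with 7 libraries and 3 residual degrees of freedom. In macrophages, none of the 36 genes tested was called, where 0% of all genes were, and 19 of 21 mitosis genes had a negative log2 fold change (median -1.33, all genes -0.12). Of 15 S phase genes 13 were negative (median -0.56). Neutrophil progenitor genes (6 of 6 negative, median -1.42), neutrophil genes (10 of 10, median -0.80) and monocyte genes (5 of 6, median -0.76), B cell genes (3 of 3, median -0.71) and choroid plexus genes (4 of 5, median -1.41) were also mostly negative, and their part in the result was not tested. Other lists were mostly positive, among them pituitary genes (3 of 3, median 2.74), endothelium genes (3 of 3, 1.03) and oligodendrocyte genes (3 of 4, 0.43). So were microglia genes (6 of 8, 0.36), erythroid genes (4 of 5, 0.07) and border-associated macrophage genes (5 of 8, 0.32). Without the male WT PFF library, in a fit added after seeing the data, 19 of 21 mitosis genes were negative (median -0.77, all genes 0.04) and 0 were called, while 2 S phase and 4 mitosis genes had an unadjusted p under 0.05, where 447 of all 11375 genes did. In that fit progenitor genes were negative for 5 of 6 (median -0.65), B cell genes for 4 of 4 (median -1.21) and choroid plexus genes for 0 of 5 (median 1.80). With all 7 libraries, Stmn1 had -1.10 (SE 0.49), Birc5 -0.88 (SE 0.47) and Cdc20 -2.28 (SE 1.22), each with an edgeR adjusted p of 0.9999. At an unadjusted p under 0.05, 133 of 11305 genes were found with the 7 libraries and 0 of the 36 were among them, and DESeq2 called 0 of them, where it called 0.451% of all genes. In microglia, none of 32 was called, where 0% of all genes were, and 10 of 18 mitosis genes tested had a positive value (median 0.54, all genes 0.11). Of 14 S phase genes 8 were positive (median 0.48). Microglia genes (8 of 8, median 0.61), pituitary genes (4 of 4, 5.56) and oligodendrocyte genes (3 of 4, 1.44) were mostly positive. Border-associated macrophage genes (2 of 8, -0.87), monocyte genes (1 of 5, -0.88) and choroid plexus genes (0 of 5, -0.53) were mostly negative. The part of these lists was not tested. At an unadjusted p under 0.05 there were 738 of 12151 genes, and 1 of the 32 was among them, Cdc45, which was also the single one of the 32 that DESeq2 called (log2 fold change 7.57, DESeq2 adjusted p 0.0019), where it called 2.48% of all genes. Cdc45 was at 0 in every MONO microglia library, so this value is not a measured fold and no bound.

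No gene passed the test of a difference in PFF effect between the 2 populations. In the interaction fit, all 21 mitosis genes had a higher PFF effect in microglia than in macrophages (median 2.26, all genes 0.48), with none called and 0 calls over all 12138 genes, 126 of them at an unadjusted p under 0.05. In the same fit B cell genes were higher for 3 of 3 (median 6.97), neutrophil genes for 9 of 10 (1.01), neutrophil progenitor genes for 3 of 6 (-0.38) and choroid plexus genes for 0 of 5 (-1.26), and their part in the result was not tested. The smallest unadjusted p of the 35 genes was that of Nusap1 (7.56, SE 3.10, edgeR adjusted p of 1). With an error of that size, a difference of several log2 units was not detectable for Nusap1. The lack of calls does not show the PFF effects in the 2 populations to be alike.

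For genotype, none of the genes was called in either population by edgeR with the filter on low counts or by DESeq2, and at an unadjusted p under 0.05 there were 1 of 36 in macrophages, where 82 of all 11305 genes were, and 2 of 32 in microglia, where 150 of 12151 were. In macrophages, 0.00885% of all genes were called, which is Cd163 itself. The S phase genes had a median of 0.78 (11 of 15 positive) and the mitosis genes of 0.43 (15 of 21), against 0.14 for all genes. Neutrophil genes were positive for 7 of 10 (median 0.51) and border-associated macrophage genes for 7 of 8 (0.37). Erythroid genes were positive for 0 of 5 (-1.45), oligodendrocyte genes for 0 of 4 (-1.64) and endothelium genes for 0 of 3 (-2.31). The part of these lists in the result was not tested. Mcm5 had a log2 fold change of CD163KO against WT of -1.55 (SE 0.63, edgeR adjusted p of 1). For microglia the median was 0.34 over the S phase genes (8 of 14 positive) and -0.12 over the mitosis genes (8 of 18), against -0.02 for all genes. Microglia genes were positive for 0 of 8 (median -0.54), border-associated macrophage genes for 1 of 8 (-0.95) and pituitary genes for 3 of 4 (1.38). Their part was not tested either. In microglia, where 0% of all genes were called, Tyms had -2.12 (SE 0.78, edgeR adjusted p of 1), and without the filter on low counts it was called (-2.09, SE 0.50, edgeR adjusted p 0.043), where 0.106% of all genes were. Its FPKM, given above for every library, ran from 72.7 to 376 in WT and from 37.6 to 185 in CD163KO, so the genotypes overlapped. No gene passed the interaction test of the PFF effect between genotypes in either population (7 libraries, 2 residual degrees of freedom), which does not show the effects to be alike, and at an unadjusted p under 0.05 there were 51 of 11305 genes in macrophages and 511 of 12151 in microglia. In macrophages the PFF effect was higher in CD163KO than in WT for 14 of 15 S phase genes (median difference 2.55) and 11 of 21 mitosis genes (0.83), with a median of 0.80 over all genes. Genes of other cell types were also higher in this fit, neutrophil progenitor genes for 6 of 6 (median 3.81), oligodendrocyte genes for 4 of 4 (3.65), choroid plexus genes for 5 of 5 (13.2) and B cell genes for 3 of 3 (1.40), and their part in the result was not tested. In microglia it was higher for 7 of 14 (median -0.04) and 10 of 18 (0.65), with -0.01 over all genes. The further mitosis genes went the other way (14 of 39 higher, median -1.84). Oligodendrocyte genes were higher for 4 of 4 (3.15), choroid plexus genes for 5 of 5 (2.18) and neutrophil progenitor genes for 0 of 4 (-1.97). The part of these cell types was not tested. Mcm2 in microglia had the smallest unadjusted p of the 32 genes tested there (log2 difference 10.8, SE 2.77, adjusted p 0.97), with 0 counts in female CD163KO MONO against 151 in female CD163KO PFF microglia, and the former is the library with Y-linked counts.

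For sex, none was called in macrophages or microglia, where 0% of all genes were called in each. In macrophages, 18 of 21 mitosis genes had a positive value of males against females (median 1.36, all genes -0.15). Neutrophil genes (10 of 10 positive, median 0.74), neutrophil progenitor genes (6 of 6, median 1.09) and monocyte genes (5 of 6, median 0.61) and B cell genes (3 of 3, median 0.40) were also mostly positive, choroid plexus genes were positive for 0 of 5 (median -3.37), and their part in the result was not tested. Without the male WT PFF library, also added after seeing the data, 20 of 21 mitosis genes were positive (median 1.43, all genes 0.02), 0 were called, and the S phase genes went from 6 of 15 to 13 of 16 positive. In that fit 7 mitosis genes and 1 S phase gene had an unadjusted p under 0.05, where 518 of all 11375 genes did, and the median of the progenitor genes was 1.61. With all 7 libraries, Birc5 (log2 fold change 1.76, SE 0.47) and Mcm5 (1.60, SE 0.59) had the smallest unadjusted p, and after adjustment both were at 0.9999 with edgeR, while DESeq2 called both (DESeq2 adjusted p 0.00056 and 0.029), where it called 0.964% of all genes. By FPKM, Birc5, Mcm5 and Cenpf were the 3 of 30 genes with a mean of at least 1 whose 3 male libraries of the fit all lay above the 4 female ones, where 2.45% of all 8587 such genes did. Birc5 had at most 20.1 in females and at least 24.2 in males, and Mcm5 2.82 and 3.53, also with the excluded male CD163KO MONO library. With that library included, males lay above females for 1.82% of all 9064 genes. In microglia the median of the mitosis genes was 0.04 and that of all genes 0.01, and Cdc20 (log2 fold change -4.95, SE 1.99, edgeR adjusted p 0.9999) was the single one of the 32 genes at an unadjusted p under 0.05, where 212 of all 12151 genes were, and the single one of them called by DESeq2 (DESeq2 adjusted p 0.017), where it called 0.469% of all genes. The female CD163KO MONO microglia with Y-linked counts, which had the highest Cdc20 level of the microglia libraries (7.38), count as female in this fit. Without them, in a fit added after seeing the data, none of the 32 genes tested was called, where 3 of all 12180 were. Cdc20 was at -5.41 (SE 2.33, edgeR adjusted p 0.9996), and the median of the mitosis genes was -0.36 (8 of 19 positive) against -0.01 for all genes.

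Single libraries were then set side by side for the comparisons of the study, with no test and no replicate check. Genes that reached an FPKM of 1 in one or both libraries were compared by the difference of log2(FPKM + 1), and a difference of at least 1 was counted. PFF-WT females had 23 of 28 genes lower and 0 higher than MONO-WT females in macrophages, where 40.4% of all genes were lower and 1.17% higher. The most lowered were Cdk1 (-2.34), from 159 counts to 0, Birc5 (-2.12) and Prc1, a spindle midzone protein (-1.99). With TMM scaling, where 35 genes were compared, 17 were lower and 1 higher, and 15.6% and 10.3% of all genes were. In CD163KO females 3 genes were lower and 3 higher of 28, where 3.93% and 17.9% of all genes were, the latter being Ccne1, Ccnb1 and Gins2. With TMM scaling 9 of 37 were lower and 6 higher, where 12.9% and 17.8% were.

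The genotypes were compared in females only. Under MONO, CD163KO macrophages had 9 of 28 genes lower and 0 higher than WT, where 24.8% and 2.31% of all genes were, and with TMM scaling 8 of 36 were lower and 2 higher, where 2420 and 1169 of 11653 were. Under PFF the order was the opposite, with 13 of 25 genes higher and 0 lower, where 32.2% and 2.48% of all genes were, led by Pcna (2.25, from an FPKM of 3.80 to 21.9). With TMM scaling 11 of 34 were higher and 3 lower, where 13.9% and 14.8% of all genes were. These comparisons share their WT and CD163KO libraries with the comparisons of treatment.

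Males given PFF were compared with females given PFF. In WT macrophages, 14 of 19 genes were higher and 4 lower, where 61.5% and 23.3% of all genes were, and the male library is the one with few genes detected. With TMM scaling, where 29 genes were compared, 11 were higher and 14 lower, and 23.5% and 50.9% of all genes were. In CD163KO macrophages 1 of 29, Birc5 (1.84), was higher and 0 were lower, where 4.26% and 20.5% of all genes were, and with TMM scaling 14 of 38 were higher and 0 lower, where 14.5% and 14.7% were.

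In microglia, PFF-WT females had 5 of 23 genes higher and 5 lower than MONO-WT females, where 7.98% and 11.5% of all genes were. In CD163KO females 3 of 23 were higher and 6 lower, where 11.6% and 9.25% were, while with TMM scaling 9 of 31 were higher and 7 lower, where 15.1% and 11.2% were. Under MONO, CD163KO females had 7 of 25 higher and 7 lower than WT females, where 10.4% and 20.0% were, with Tyms the most lowered (-3.29). Both of these comparisons rest on the female CD163KO MONO library with Y-linked counts. Under PFF 3 of 23 were higher and 1 lower, where 4.25% and 6.79% were, with TMM scaling 7 of 30 were higher and 2 lower, where 6.34% and 10.5% were, and Ccnb2 went from 3 to 200 counts. Males given PFF had 0 of 20 genes higher and 12 lower than females in WT, where 1.29% and 84.3% of all genes were, and with TMM scaling 8 of 31 were higher and 2 lower, where 14.4% and 11.2% were. In CD163KO, males had 5 of 26 higher and 4 lower, where 6.74% and 5.73% were, and with TMM scaling 7 of 34 were higher and 7 lower, where 9.86% and 7.94% were.

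**Figure D5:**
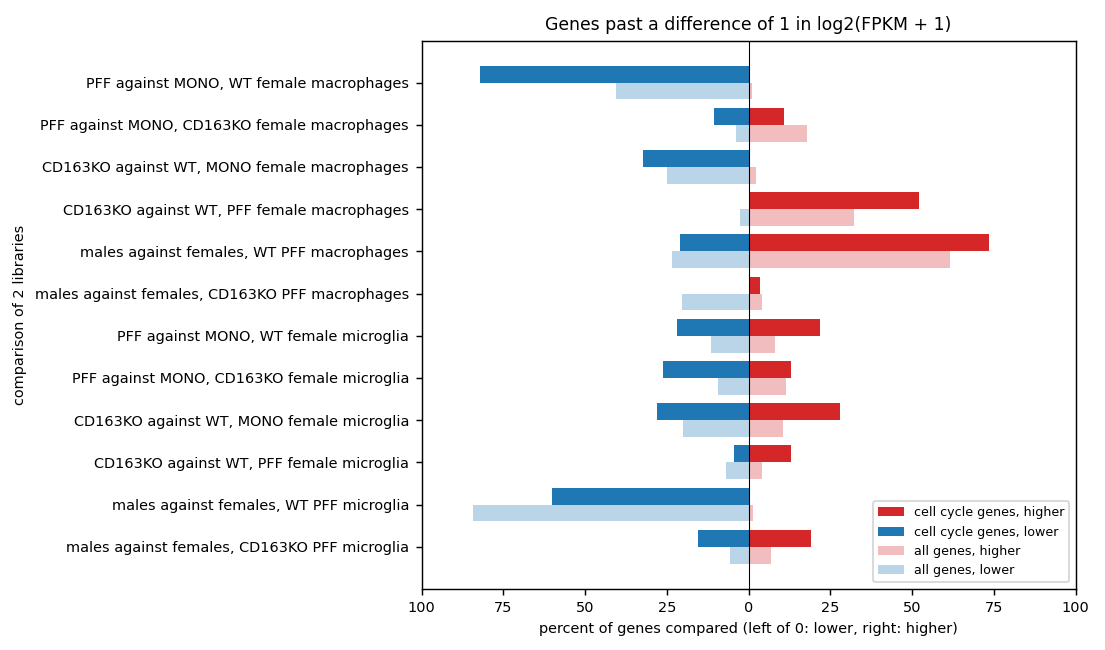
Share of the cell cycle genes (dark bars) and of all genes (light bars) past a difference of 1 in log2(FPKM + 1), higher to the right and lower to the left, for the 12 comparisons of 2 libraries. For WT males against WT females given PFF, both kinds of bar reach farthest to the right among the macrophage comparisons (61.5% of all genes) and farthest to the left among the microglia comparisons (84.3%).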

How the data were processed

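Per the labels and the study's methods, cells sorted by flow cytometry were sequenced by SMART-seq2, and reads were aligned with Bowtie2 and quantified with RSEM (build mm10 in the submitters' processing notes, versions not given in the sources used here). The authors deposited 1 table per library with an estimated count and an FPKM per transcript. Of 27787 transcripts listed, 27632 were matched to a gene symbol, giving 18580 genes, and both units were summed per gene.

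Summed estimated counts were rounded and tested with edgeR 4.0.16 in R 4.3.3 (quasi-likelihood, TMM scaling, mean count of at least 10, Benjamini-Hochberg adjustment over all genes tested). Populations were compared over 7 pairs of libraries with the pair as a block, since both populations came from the same group of mice. Sex, genotype and treatment were fitted additively within each population. Nothing states that the libraries of a fit share no animals or days beyond this, so p-values measure the spread between these libraries. Differences of 2 libraries used log2(FPKM + 1) in Python 3.11.15 and no test, and understate the change of low genes. The code was tested on simulated counts.

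The 38 genes, and the lists of other genes, were chosen with earlier results of these data known. All 38 genes were to be accounted for, those central to each role library by library, and of each further list at most the 3 called genes with the largest change, besides Cdkn1a, Cdkn1b, Ccnd1, Ccnd3 and Foxm1. Alternatives were DESeq2 1.42.0, other scalings, no filter, no block, leaving out libraries, and other pseudocounts, filters and thresholds.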

Additional observations from a re-analysis of the deposited data

Results flagged for a closer look

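The female CD163KO MONO microglia library carried 799 summed counts of Y-linked genes, against at most 2 in the other female libraries. It enters the fits under its label.

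The male CD163KO MONO macrophages, which the study excluded and which enter no fit, had the highest sums of all libraries, an FPKM of 396 over the 22 mitosis genes and of 275 over the 15 S phase genes without Tyms. Among the macrophage libraries, that library was also the highest for 40.0% of all 9064 genes with a mean FPKM of at least 1.

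A few genes passed a difference of 1 in log2(FPKM + 1) in opposite directions in 2 comparisons of the same kind. Each rests on single libraries, and the difference between the comparisons was not tested. Gins2 was lower with PFF than with MONO in WT female macrophages (-1.90) and higher in CD163KO female macrophages (1.32), as 1 of 26 genes compared in both. Between CD163KO and WT female macrophages, 3 of 23 genes were lower under MONO and higher under PFF. These were Gins2 (-1.87 and 1.35), Ccnb1 (-1.36 and 1.04) and Cenpa (-1.08 and 1.23). Of all genes, 40.4% were lower with PFF in WT and 17.9% higher in CD163KO, and 24.8% were lower in CD163KO under MONO and 32.2% higher under PFF. All of these comparisons share libraries. Mcm6 was lower in males than in females given PFF in WT microglia (-1.77) and higher in CD163KO microglia (1.80), as 1 of 19 genes. In the former 84.3% of all genes were lower, with a median of -1.74 over all genes, and in the latter 6.74% were higher. Groups of 1 library allowed no search for a sample far from its group.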

How the results depend on the processing

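Between populations, 8 of the genes were called, where 19.7% of all genes were. The count was 4 with library totals alone (50.9% of all genes), 21 with DESeq2 (37.0%), 16 with no block for the pairing (24.3%), 5 to 15 when 1 pair was left out (14.5% to 33.0%), and 16 without the male WT PFF and female CD163KO MONO pairs, chosen after seeing the data (30.3%). Each of the 8 called genes was refitted under 17 alternatives. Over these 136 values, 110 stayed called in the same direction, 26 kept the direction without the call and 0 reversed. Aurkb lost its call in 9, Mcm5 in 6 and Tyms in 0. The replicate block was part of the population fit and of the interaction fits between populations. Within populations, 86 of 90 alternatives called none of the genes. The others were Cdc45 for PFF in microglia (1 gene, DESeq2, log2 fold change 7.57 with every MONO library at 0, 2.48% of all genes called), Tyms for genotype in microglia (1 gene, no filter, -2.09, 0.106%), Birc5 and Mcm5 for sex in macrophages (2 genes, DESeq2, 0.964%) and Cdc20 for sex in microglia (1 gene, DESeq2, -5.04, 0.469%). The causes were not tested.

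The counts of genes past a difference of 1 between single libraries moved with the settings. In the order PFF against MONO in WT and in CD163KO females, CD163KO against WT under MONO and under PFF, and males against females given PFF in WT and in CD163KO, the macrophage counts were 23, 6, 9, 13, 18 and 1. They became 5, 0, 2, 1 and 10 in the first 5 with a pseudocount of 5, and 2, 0, 0, 1, 11 and 0 with a threshold of 2. With an FPKM of at least 5 the first 4 became 10, 1, 5 and 5. With a pseudocount of 0.1 PFF against MONO and males against females in CD163KO became 11 and 11, and with TMM scaling 15 and 14. In microglia the counts were 10, 9, 14, 4, 12 and 9. They became 2, 2, 3, 1, 3 and 3 with a pseudocount of 5, and 1, 2, 4, 1, 2 and 3 with a threshold of 2. With an FPKM of at least 5, the counts became 3, 4, 4, 5 and 3, with CD163KO against WT under PFF left out as little moved. With TMM scaling PFF against MONO in CD163KO, CD163KO against WT under PFF and males against females in CD163KO became 16, 9 and 14, and with a pseudocount of 0.1 CD163KO against WT under PFF became 7. The shares of all genes moved with them. Over the 6 macrophage comparisons, 21.9% to 84.8% of all genes passed the difference in either direction, 4.23% to 57.3% with a pseudocount of 5, 2.35% to 50.9% with a threshold of 2 and at most 74.4% with TMM scaling. Over the 6 microglia comparisons these were 11.0% to 85.6%, 1.28% to 52.9%, 0.743% to 35.3% and at most 36.0%. Between 19 and 29 of the genes were compared in macrophages and 20 to 26 in microglia, 9 to 14 and 6 to 12 with an FPKM of at least 5, and 29 to 38 and 29 to 34 with TMM scaling. Most mitosis genes lay below an FPKM of 1 in microglia, which limits these counts, and a library at 0 does not show absence.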
